A study of Mus musculus with 5 samples.

Results

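H2AK119ub peaks were called in DDX5 knockout mouse embryonic stem cells at 5670 sites where the wild-type list held no peak. These sites are the knockout-alone peaks. They were chosen by measured values: a peak of the knockout list on 17 autosomes belonged to the set when it shared not even 1 bp with a wild-type peak. The 5670 are 33.1% of the 17144 knockout peaks on those autosomes, and the knockout list held 20994 peaks in all. Since the choice rests on the knockout and wild-type H2AK119ub lists, the number, width and distance of the peaks are given as a description with no test. RYBP, gene position and promoter sequence did not enter the choice.

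The tested cells were a DDX5 knockout line, DDX5-/-, and the comparison was with its wild-type parent line MPI-II. The knockout was 1 monoclonal line, made by transfecting a Cas9 nickase with paired guide RNAs against the second exon of Ddx5, so features of that clone and of the genotype cannot be told apart. Both lines were grown on feeder cells with serum, LIF and inhibitors of MEK and GSK3. Chromatin was immunoprecipitated with an antibody against H2AK119ub in knockout and in wild-type cells, and against RYBP, sold under its alias DEDAF, in wild-type cells. There was 1 library of each kind, so no difference between genotypes could be set against the spread between replicates. The input libraries of both genotypes were not analysed here.

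DDX5 is a DEAD-box RNA helicase. H2AK119ub is the ubiquitin that Polycomb repressive complex 1 (PRC1) attaches to histone H2A, and in embryonic stem cells it covers the CpG-rich starts of many silent developmental genes. RYBP is a subunit of the variant forms of PRC1, which lack a CBX protein, and it binds ubiquitinated H2A. KDM2B, a subunit of one variant form, recognises unmethylated CpG dinucleotides.

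Ddx5 itself (chr11:106780355-106789185, mm10) had 0 bp of H2AK119ub within 2 kb of its ends in the knockout and 0 bp in the wild type, and 2289 bp of RYBP. A peak list does not check the genotype. Chromosomes 6 and 8 were left out by the rule. On chromosome 6, 910 of 1754 knockout peaks (51.9%, 95% Wilson interval 49.5 to 54.2) met no wild-type peak, and on chromosome 8, 438 of 2046 (21.4%, 19.7 to 23.2). Among the chromosomes used, this share ran from 26.8% to 45.3% with a median of 33.3%. The knockout list held fewer and narrower peaks on the same autosomes, 17144 with a median width of 1017 bp, against 20521 with a median of 1316 bp in the wild type. Of the wild-type peaks, 10777 (52.5%) met no knockout peak, so peaks found in the wild type alone outnumbered those found in the knockout alone. All intervals below are 95% intervals for counting error alone, since peaks of 1 library are not replicates, and read depth is unknown.

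The promoters of 8 genes reached wholly or in part by knockout-alone peaks are shown, 5 with RYBP in wild-type cells and 3 without. Each is RefSeq sequence of GRCm38.p6, the same assembly as mm10, from 250 bases before to 50 bases after the annotated start, 5′ to 3′ on the gene's strand, with every CpG in capitals. The 5 with RYBP were all covered whole by a RYBP peak. CpG counts are for the whole 300 bases, also where the knockout-alone peak covered only part of them. Sema5b, a semaphorin of axon guidance (chr16:35541112-35541411, plus strand), lay wholly inside the widest knockout-alone peak and held 27 CpG. Rbm46, an RNA-binding protein of germ cells (chr3:82876434-82876733, minus strand), held 25 and was wholly covered by knockout H2AK119ub. Sycp1, a synaptonemal complex protein of meiosis (chr3:102936051-102936350, minus strand), held 21 and was also wholly covered. Id3, an inhibitor of basic helix-loop-helix factors (chr4:136143572-136143871, plus strand), held 19 with 182 bases covered. Jag1, a Notch ligand (chr2:137116471-137116770, minus strand), held 22 with its last 6 bases at the peak's edge and the rest of the peak inside the gene.
Sema5b: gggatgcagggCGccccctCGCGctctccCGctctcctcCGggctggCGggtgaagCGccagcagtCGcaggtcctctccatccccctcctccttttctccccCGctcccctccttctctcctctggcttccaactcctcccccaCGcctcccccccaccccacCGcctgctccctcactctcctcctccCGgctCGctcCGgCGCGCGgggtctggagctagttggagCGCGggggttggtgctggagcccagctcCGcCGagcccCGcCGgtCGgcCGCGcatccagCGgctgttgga
Rbm46: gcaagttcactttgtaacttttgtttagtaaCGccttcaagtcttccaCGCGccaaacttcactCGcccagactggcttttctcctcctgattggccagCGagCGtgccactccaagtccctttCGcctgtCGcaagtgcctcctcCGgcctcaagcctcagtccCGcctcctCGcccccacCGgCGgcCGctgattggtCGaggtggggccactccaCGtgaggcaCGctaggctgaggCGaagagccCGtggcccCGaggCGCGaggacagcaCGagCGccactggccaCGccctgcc
Sycp1: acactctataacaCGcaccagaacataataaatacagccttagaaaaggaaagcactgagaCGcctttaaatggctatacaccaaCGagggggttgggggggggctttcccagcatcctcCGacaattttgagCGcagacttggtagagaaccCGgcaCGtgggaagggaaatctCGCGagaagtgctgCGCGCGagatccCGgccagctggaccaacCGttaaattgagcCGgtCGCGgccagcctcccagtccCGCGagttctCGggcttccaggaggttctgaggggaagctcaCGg
Id3: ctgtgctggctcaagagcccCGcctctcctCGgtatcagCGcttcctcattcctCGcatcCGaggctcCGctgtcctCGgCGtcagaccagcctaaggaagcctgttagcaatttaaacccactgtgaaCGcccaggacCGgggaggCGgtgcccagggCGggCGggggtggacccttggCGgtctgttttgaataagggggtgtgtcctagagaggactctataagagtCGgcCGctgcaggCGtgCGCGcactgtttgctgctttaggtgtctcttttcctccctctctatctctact
Jag1: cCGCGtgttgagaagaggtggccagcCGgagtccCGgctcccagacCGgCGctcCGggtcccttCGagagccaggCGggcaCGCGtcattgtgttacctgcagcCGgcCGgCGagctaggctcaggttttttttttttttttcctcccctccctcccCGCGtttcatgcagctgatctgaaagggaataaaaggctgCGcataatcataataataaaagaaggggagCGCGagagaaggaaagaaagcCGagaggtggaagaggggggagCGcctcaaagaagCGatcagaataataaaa

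The 3 promoters without RYBP are shown because they differ in CpG content. Krt5, a keratin of basal epidermis (chr15:101712856-101713155, minus strand), held 6 CpG in 300 bases and was wholly covered by knockout H2AK119ub. Cxcl10, a chemokine (chr5:92348840-92349139, minus strand), held 10 with 90 bases covered. Cldn11, a tight-junction protein of myelin (chr3:31149670-31149969, plus strand), held 24 and was wholly covered, so a CpG-dense promoter also occurred without a RYBP peak.
Krt5: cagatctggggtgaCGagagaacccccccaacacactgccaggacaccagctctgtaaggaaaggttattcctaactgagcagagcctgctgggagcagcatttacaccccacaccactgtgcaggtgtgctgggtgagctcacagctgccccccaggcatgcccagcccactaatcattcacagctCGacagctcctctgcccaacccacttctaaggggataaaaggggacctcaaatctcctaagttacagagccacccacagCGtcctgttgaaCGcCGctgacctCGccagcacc
Cxcl10: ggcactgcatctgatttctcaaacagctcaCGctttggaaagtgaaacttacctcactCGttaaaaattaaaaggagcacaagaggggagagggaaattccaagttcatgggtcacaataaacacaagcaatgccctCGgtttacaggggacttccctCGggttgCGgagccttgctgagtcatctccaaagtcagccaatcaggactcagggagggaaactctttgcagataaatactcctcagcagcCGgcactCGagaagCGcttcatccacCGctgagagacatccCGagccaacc
Cldn11: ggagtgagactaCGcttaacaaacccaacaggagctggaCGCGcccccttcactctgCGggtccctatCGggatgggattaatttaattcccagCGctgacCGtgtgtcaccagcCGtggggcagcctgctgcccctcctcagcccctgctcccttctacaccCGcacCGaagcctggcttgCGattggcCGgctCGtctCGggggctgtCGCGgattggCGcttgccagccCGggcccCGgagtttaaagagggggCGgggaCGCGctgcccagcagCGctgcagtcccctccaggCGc

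Knockout-alone peaks were narrow. Their median width was 794 bp (787 to 802), against 1207 bp (1193 to 1223) for knockout peaks shared with the wild type. The middle of the distribution ran from 645 to 999 bp in knockout-alone peaks and from 884 to 1805 bp in shared ones. At least 1 kb was reached by 1415 knockout-alone peaks (24.96%) and by 7425 shared peaks (64.7%), and at least 5 kb by 1 and by 273. Together the knockout-alone peaks covered 4.95 Mb, against 18.1 Mb for the shared peaks. Wild-type-alone peaks were wider, with a median of 1098 bp, and 60.8% of them reached 1 kb.

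**Figure D1:**
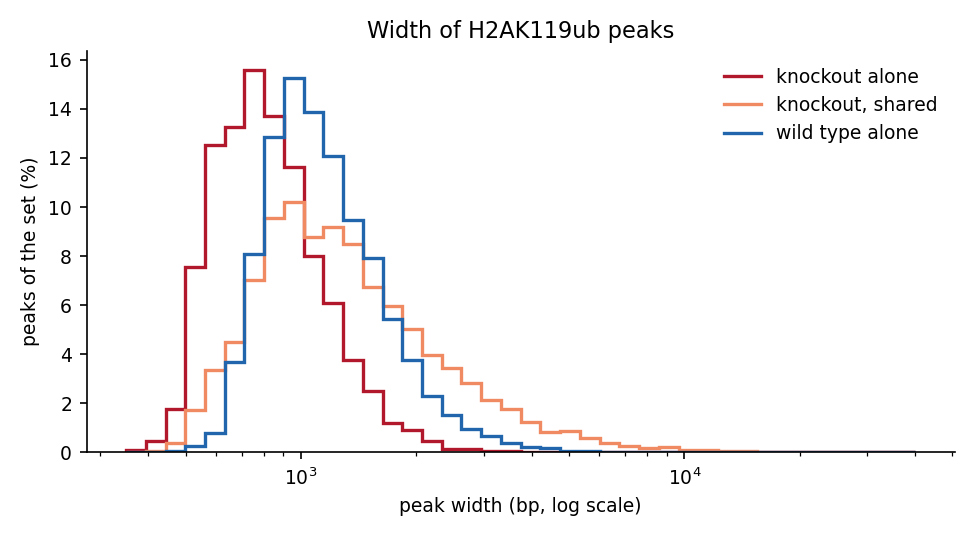
Distribution of H2AK119ub peak width in bp on a log axis, as a percent of each set, for knockout-alone (5670), shared knockout (11474) and wild-type-alone peaks (10777). The knockout-alone curve peaks left of both others, at a median of 794 bp.

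Width and membership went together across the knockout list. Its peaks were divided at their width quartiles into 4 classes, and 61.3% of the narrowest class (355 to 772 bp) were knockout-alone. The share was 40.2% from 773 to 1016 bp, 24.4% from 1017 to 1489 bp and 6.46% (277 of 4286) from 1490 bp upwards. A wide peak has more length with which to meet a wild-type peak, so this gradient is partly built into the rule.

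The widest knockout-alone peak stood far from the rest. It measured 14085 bp (chr16:35530524-35544608) and lay over the start of Sema5b, with 4763 bp of RYBP and the nearest wild-type peak 10392 bp away. The wild-type peaks that flank it, at chr16:35511552-35515410 and chr16:35555001-35558069, overlapped no knockout peak. Its place in the set rests on the lack of a wild-type entry between those flanking peaks in the list used here, which could not be checked against signal. The next widest, 4477 bp at chr13:23408688-23413164, lay 5196 bp from Abt1, an activator of basal transcription, and held 2922 bp of RYBP. The following 6 measured 3910 bp near Thbs2 (thrombospondin 2), 3542 bp near Vdr (the vitamin D receptor), 3479 bp in Cdh4 (a cadherin), 3428 bp at Id3, 3239 bp at Mroh2a and 3137 bp at Cacna1i (a calcium channel). In that order, their gaps to the nearest wild-type peak were 581, 1430, 6130, 8742, 99 and 602 bp. Of these 6, Id3 alone had RYBP under the peak, 1729 bp.

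Most knockout-alone peaks lay close to wild-type H2AK119ub. The median gap to the nearest wild-type peak was 3124.5 bp (2909 to 3394), and the quartiles were 836 and 15249 bp. Within 5 kb lay 3290 of the 5670 (58.0%, 56.7 to 59.3), while 4.89% of the sequence between wild-type peaks lies that close. Within 1 kb lay 28.5% and within 100 kb 91.2%, for which the sequence gives 1.45% and 29.5%. Wild-type-alone peaks were also clustered around the knockout list, with a median gap of 4642 bp and 51.5% within 5 kb. Closeness to the other genotype's peaks was therefore a feature of unmatched peaks in both lists.

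**Figure D2:**
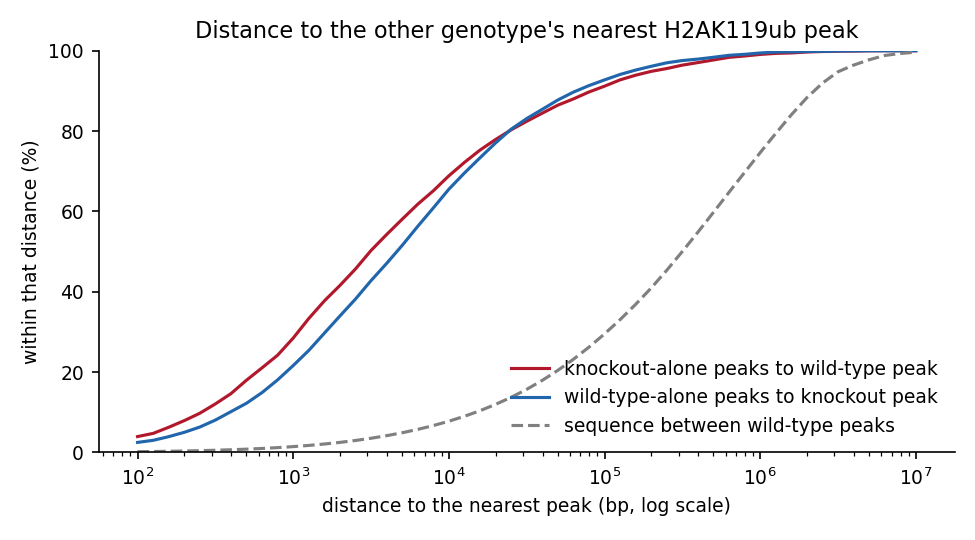
Cumulative percent of knockout-alone peaks by gap to the nearest wild-type peak, of wild-type-alone peaks by gap to the nearest knockout peak, and of the sequence between wild-type peaks, with the gap in bp on a log axis. Both peak curves pass 50% below 5 kb, where the sequence curve is at 4.89%.

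Few of the 3290 peaks within 5 kb had a single broad wild-type peak as their nearest. That peak was at least 5 kb wide for 77 of them (2.34%), and 3.67% of all wild-type peaks are that wide. Neighbouring wild-type peaks were not joined for this count. It therefore cannot tell whether the 3290 lay at the rims or in the gaps of broader domains listed as several peaks. Of the 3290, 1197 (36.4%) had wild-type peaks within 5 kb on both sides and 2093 (63.6%) on 1 side. For 1617 (49.1%, 47.4 to 50.9) the nearest wild-type peak overlapped a knockout peak, close to the 47.5% of all wild-type peaks that did. For the other 1673 (50.9%) the nearest wild-type peak met no knockout peak, close to the 52.5% of all wild-type peaks that met none. A shared knockout peak within 5 kb stood beside 2050 (62.3%). The remaining 2380 knockout-alone peaks (42.0%) lay more than 5 kb from any wild-type peak, and 500 (8.82%) lay more than 100 kb away.

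The rule turns on single base pairs at its edge. Peaks just inside it had gaps of 0 and 2 bp: chr15:85720903-85722052 near Ppara, and chr4:131493515-131494187. Those just outside overlapped by 1, 1 and 2 bp: chr15:79133180-79134256 in Micall1, chr19:10332293-10333268, and chr2:152928488-152929641. In all, 221 knockout-alone peaks (3.90%) lay under 100 bp from a wild-type peak, and 193 shared knockout peaks (1.68%) had under 100 bp covered by one.

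Some knockout-alone peaks lay close to each other. Another knockout-alone peak lay within 10 kb of 2351 of them (41.5%), which formed 931 runs, 50 of them with 5 peaks or more. The same count was not made for shared or wild-type-alone peaks, so this share cannot be called particular to the set. The run with the most peaks, chr13:51933717-51976918, held 12 knockout-alone peaks in 43202 bp with 4 shared knockout peaks and 7 wild-type peaks among them. It held no protein-coding gene, and the nearest on its left, 85241 bp away, was Gadd45g, a stress-response gene. From its start to chr13:52232209, a span of 298493 bp, the knockout list had 41 peaks, 34 of them knockout-alone, covering 43708 bp, against 15 wild-type peaks covering 19124 bp. RYBP had 1 peak in that span. The next runs by number of peaks were 11 in Ntn1 (netrin 1), 9 in Cdh4, 9 across Foxn1 (a thymic epithelial transcription factor) and Slc13a2 (a dicarboxylate transporter), and 2 runs of 9 within the same span of chromosome 13. Among their knockout-alone peaks lay 1 wild-type peak in Ntn1, 4 in Cdh4, 1 across Foxn1 and Slc13a2, and 2 and 0 in the runs of chromosome 13.

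**Figure D3:**
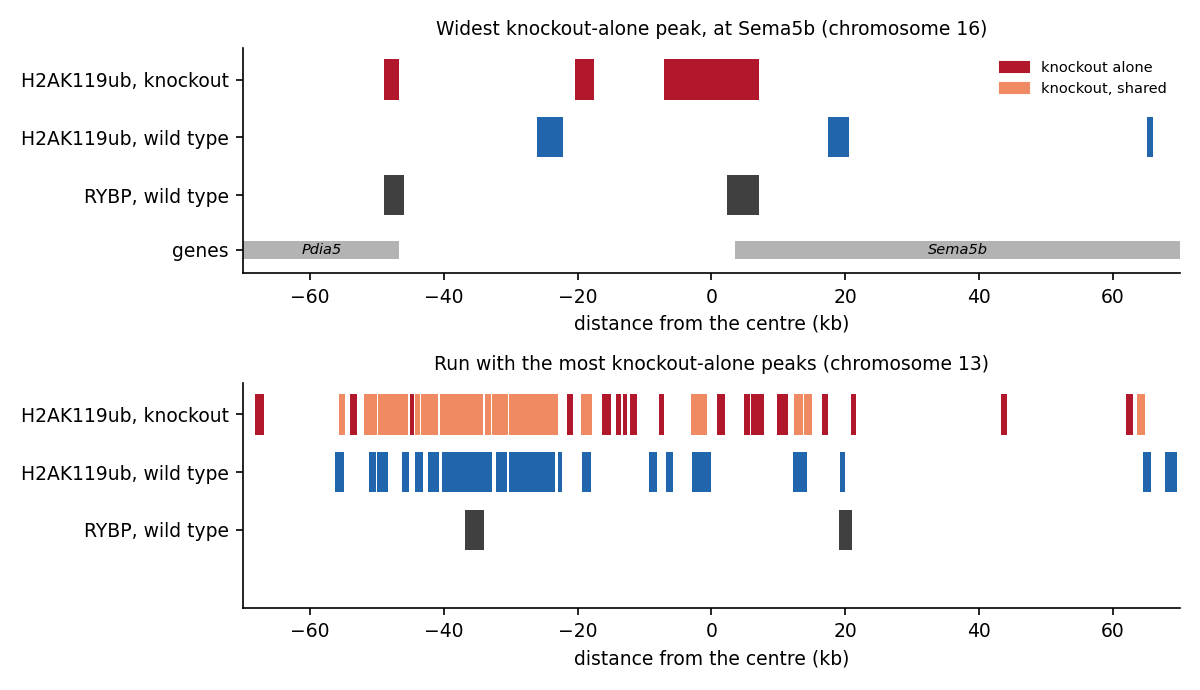
Peaks by distance in kb from the centre of the widest knockout-alone peak (top, 14085 bp at Sema5b) and of the run of 12 (bottom), with knockout H2AK119ub above wild-type H2AK119ub and wild-type RYBP. Dark red marks knockout-alone and orange shared knockout peaks. At Sema5b the wild-type peaks sit to either side of the knockout peak, and in the run the knockout-alone peaks sit between and beyond wild-type ones.

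RYBP was rare at knockout-alone peaks. Of the 5670, 512 overlapped a wild-type RYBP peak (9.03%, 8.31 to 9.80), against 3445 of 11474 shared knockout peaks (30.0%, 29.2 to 30.9). Over all knockout peaks the share was 23.1%. The difference of knockout-alone minus shared was -20.99 percentage points (Newcombe interval -22.1 to -19.9). With RYBP required to cover at least 50% of the peak, the difference was -10.2 points. The share was below that of shared peaks on 17 of 17 autosomes, running from 5.14% to 18.5% in knockout-alone and from 18.8% to 48.6% in shared peaks. Among wild-type-alone peaks 10.3% overlapped RYBP, which put knockout-alone peaks -1.32 points from them (-2.25 to -0.36). RYBP peaks cover 0.692% of the sequence.

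The gap was of a different size in each width class. Within the 4 width classes, narrowest first, RYBP overlapped 4.88%, 10.5%, 15.3% and 15.9% of knockout-alone peaks, against 9.89%, 17.5%, 26.7% and 49.1% of shared peaks. Knockout-alone peaks were thus lower in each class, by -5.01 points (-6.72 to -3.40) in the narrowest and -33.2 points (-37.3 to -28.2) in the widest. The mean of the 4 differences was -14.2 points. Widths were not fully matched in the widest class, where the median was 1721 bp for knockout-alone and 2169 bp for shared peaks. Against wild-type-alone peaks of like width the order differed: knockout-alone peaks were higher in the middle classes, by 3.18 points (1.54 to 4.93) and 3.92 points (1.64 to 6.41), and the intervals in the outer classes spanned 0. Where RYBP was present, it covered a median of 76.0% of a knockout-alone peak and 55.2% of a shared one. Knockout-alone peaks were narrower as a set, and widths were not matched for these 2 values. Where RYBP was absent, its nearest peak lay a median of 31784 bp from knockout-alone peaks and 15058 bp from shared ones.

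Distance separated the knockout-alone peaks into unlike groups. RYBP overlapped 11.1% (179 of 1615) of those within 1 kb of a wild-type peak, 3.82% between 1 and 5 kb, 4.39% between 5 and 10 kb and 7.44% between 10 and 50 kb. It overlapped 13.7% between 50 and 100 kb and 26.2% (131 of 500, 22.5 to 30.2) beyond 100 kb. Peaks beyond 100 kb thus exceeded nearer ones by 18.8 points (15.1 to 22.9). Isolated peaks lay at gene ends more often, 34.8% beyond 100 kb against 10.2% to 19.9% in the nearer classes, yet the difference held on both sides of that split. At gene ends 102 of 174 isolated peaks (58.6%) had RYBP, against 246 of 832 nearer ones (29.6%). Elsewhere it was 29 of 326 (8.90%) against 135 of 4338 (3.11%).

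**Figure D4:**
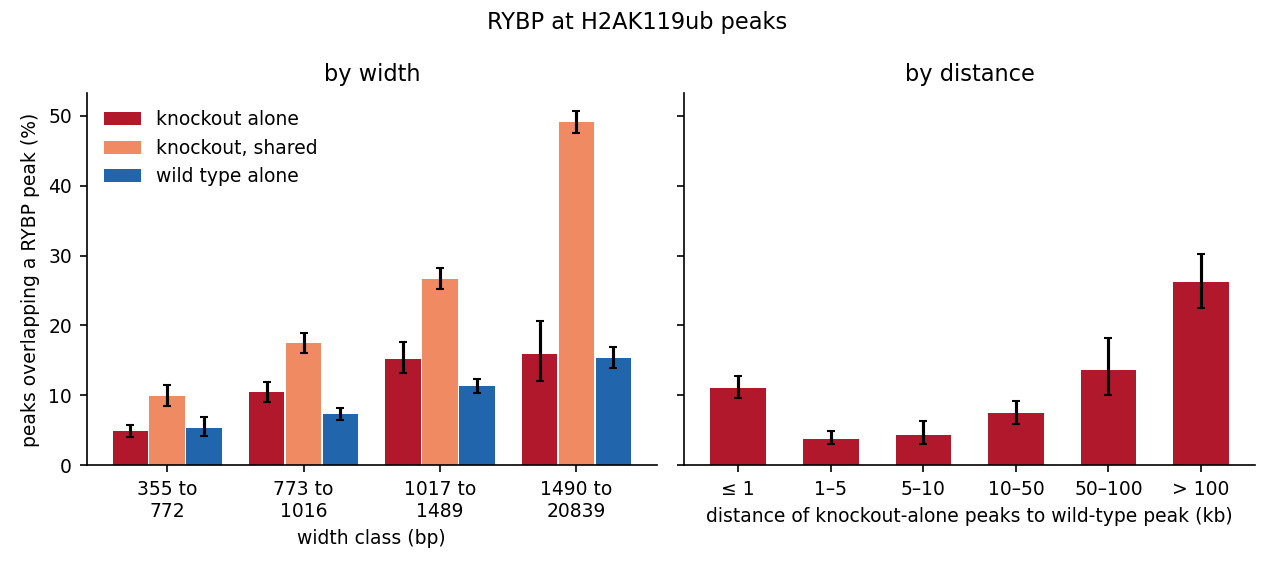
Percent of H2AK119ub peaks that overlap a wild-type RYBP peak, with 95% Wilson intervals as bars, by width class in bp for 3 sets of peaks (left) and by distance in kb for knockout-alone peaks (right). Shared knockout peaks are highest in each width class, and among knockout-alone peaks the share is lowest between 1 and 5 kb (3.82%) and highest beyond 100 kb (26.2%).

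The most isolated peaks lay at single genes. The farthest, 1049 bp at chr12:44329742-44330790, lay in Nrcam, a neural cell adhesion molecule, with 537 bp of RYBP and the nearest wild-type peak 5042362 bp away. The second, 756 bp at Penk (proenkephalin), was 4806505 bp from one and held 432 bp of RYBP. The third, 859 bp in Stxbp6 (a syntaxin-binding protein), was 4300519 bp away and had no RYBP. The fourth, 824 bp in Slco5a1 (an organic anion transporter family member), was 4106282 bp away and was covered by RYBP over all 824 bp. Apart from Stxbp6, each of these 4 peaks therefore met RYBP. Near a wild-type site, the peak with the most RYBP was the one at Nlgn2, a neuroligin of inhibitory synapses: 1879 bp, all covered, at 140 bp from a wild-type peak.

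Seen from the RYBP list, 4488 RYBP peaks carried no wild-type H2AK119ub peak, and 326 of them (7.26%, 6.54 to 8.06) overlapped a knockout-alone peak. These 326 were wider, with a median of 1718 bp (1659 to 1827), than the 4140 RYBP peaks with H2AK119ub in neither genotype (1449.5 bp, 1433 to 1464). A wide RYBP peak has more length with which to meet a knockout-alone peak, so this difference is partly built into the overlap. RYBP peaks with wild-type H2AK119ub had a median of 1818 bp. Gene ends held 69.9% of the 326 and 72.5% of the 4140.

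Knockout-alone peaks were less often at genes' ends than shared ones. The centre lay within 2 kb of the start or end of a protein-coding gene for 1006 of 5670 (17.7%, 16.8 to 18.8), against 30.4% of shared knockout peaks and 26.2% of all knockout peaks. The difference of knockout-alone minus shared was -12.7 points (-14.0 to -11.4). Inside genes lay 44.0% of knockout-alone and 45.5% of shared peaks, and between genes 38.2% and 24.0%. Wild-type-alone peaks were placed much like knockout-alone ones, with 20.5% at gene ends, 45.0% inside genes and 34.5% between genes. Gene ends make up 5.91% of the sequence, the inside of genes 37.8% and the rest 56.3%. RYBP was less frequent at knockout-alone than at shared peaks in each place: 34.6% and 58.0% at gene ends, 4.12% and 20.2% inside genes, 2.81% and 13.3% between genes. The shares among wild-type-alone peaks were 32.1%, 5.25% and 4.09% in the same order of places.

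Genes count as marked here where a peak reached within 2 kb of their start or end, inside or outside the gene. Knockout-alone peaks did so at 1144 of 18496 protein-coding genes (6.19%), of which 626 also had a wild-type peak there. The other 518 genes, 2.80% of all, were marked in the knockout alone. Wild-type H2AK119ub farther inside the gene was not counted, and some of the 518 had it, among them Asic2, Axl and Kdm2b. Marked in the wild type alone were 1384 genes (7.48%), and in both genotypes 3150 (17.0%). A gene marked in the knockout alone had a median of 829.5 bp of H2AK119ub, against 1128.5 bp at genes marked in the wild type alone. The 518 genes rested on 520 peaks, 41 of which marked more than 1 gene.

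RYBP stood at 286 of these 518 genes in wild-type cells (55.2%, 50.9 to 59.4), and at 34.8% of all genes. With RYBP required to cover at least 50% of the peak, the share of the 518 was 33.4%. The share was 73.7% at genes marked in both genotypes, 50.7% at genes marked in the wild type alone and 23.3% at genes marked in neither. Genes marked in the knockout alone exceeded unmarked genes by 31.9 points (27.6 to 36.2), while their difference from genes marked in the wild type alone, 4.56 points, had an interval from -0.48 to 9.54. Isolation went with RYBP here too. Of the 518, 155 had no wild-type peak within 100 kb, and 113 of those (72.9%, 65.4 to 79.3) had RYBP, against 173 of 363 nearer ones (47.7%). Among genes marked in neither genotype the order ran the other way, with 19.1% of 7538 isolated genes and 28.6% of 5895 nearer ones. The isolated genes marked in the knockout alone thus exceeded isolated unmarked genes by 53.8 points (46.2 to 60.2).

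The start of the gene was the usual place. Of 407 genes marked in the knockout alone whose strand is known from a promoter sequence, 272 (66.8%) had the peak at the start only, 76 (18.7%) at the far end only and 59 (14.5%) at both. Among genes marked in both genotypes 48.5% had it at the start only and 34.3% at both ends. A peak at the start coincided with RYBP at that end in 183 of 272 genes (67.3%), and one at the far end in 13 of 76 (17.1%), a difference of 50.2 points (38.6 to 58.8). RYBP at the starts and far ends of other genes was not counted, so this difference cannot be called particular to these genes. The 300-base promoter itself was reached at 91 of the 407 (22.4%), against 43.4% for genes marked in both and 23.1% for genes marked in the wild type alone, so many knockout-alone peaks lay beside the start and not over it.

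CpG content followed RYBP more than genotype. The median promoter reached by knockout-alone H2AK119ub and by no wild-type peak held 14 CpG in 300 bases (197 promoters), the same as the median of all 18051. With RYBP the median was 21.5 (102 promoters) and without it 7 (95 promoters). Promoters marked in both genotypes had 24 with RYBP and 8 without, and unmarked ones 25 and 7. RYBP lay over 51.8% (44.8 to 58.7) of the 197 and over 25.3% of unmarked promoters. The E-box CACGTG, which reads the same on both strands, was present in 11.2% of the 197 (7.49 to 16.3), against 8.06% of all promoters. The E2F-type sequence TTCCCGC on either strand was in 6.60% (3.90 to 10.96), against 6.04% of all. Both intervals include the share of all promoters.

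Among the 518, with predicted and clone-named genes left out, the 10 genes with RYBP at their ends that carried the most knockout H2AK119ub had 1690 to 3759 bp of it and 0 bp in the wild type. Arhgef37, a guanine nucleotide exchange factor, had 3759 bp of H2AK119ub in 4 peaks spread over both its ends, and 1678 bp of RYBP. Of these peaks RYBP overlapped only chr18:61534667-61536323, over 774 bp. That peak lay 46539 bp from the nearest wild-type peak, and the others lay 2334, 3240 and 4184 bp from one. Id3 had 3428 bp of H2AK119ub in 1 peak and 2060 bp of RYBP. Frat1, a GSK3-binding protein of Wnt signalling, had 3357 bp and 2845 bp of RYBP. These 3 stood above the other 7, whose H2AK119ub did not exceed 2052 bp.

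Sema6d, a semaphorin, had 2052 bp of H2AK119ub, in peaks 860609 and 859757 bp from the nearest wild-type peak. Hps6, a subunit of a lysosome-related organelle complex, had 1963 bp. Pdia5, a protein disulfide isomerase next to Sema5b, had 1915 bp, with 2195 of its peak's 2225 bp under RYBP. Then came Ciart, a circadian repressor (1835 bp), Rbm46 (1821 bp), Jag1 (1779 bp) and Ttll12, a tubulin tyrosine ligase-like protein (1690 bp). Jag1 had the most RYBP of the 10, 3701 bp, and its peak (chr2:137114698-137116476) lay 2326772 bp from the nearest wild-type one and was covered by RYBP over its whole 1779 bp.

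With the same genes left out, the 10 with the most knockout H2AK119ub and no RYBP within 2 kb of their ends had 1613 to 3509 bp of it, and also 0 bp in the wild type. Krt5 led them with 3509 bp in 2 peaks, 1 over its promoter. Asic2, an acid-sensing ion channel, had 2588 bp in 1 peak over its start, 263109 bp from wild-type H2AK119ub. Dcakd (1968 bp), the collagen gene Col14a1 (1961 bp) and Cldn11 (1935 bp) came next. Asic2 and Dcakd each had an annotated promoter reached by RYBP, outside those 2 kb. The receptor tyrosine kinase gene Axl had 1842 bp, Fam118a 1838 bp, the hair keratin gene Krt36 1660 bp, the matricellular protein gene Ccn4 1624 bp and Cd300lg 1613 bp. Col14a1 and Cldn11 were isolated, with their peaks 597032 bp or more and 158075 bp from a wild-type peak, while 1 peak at Axl lay 687 bp from one.

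**Figure D5:**
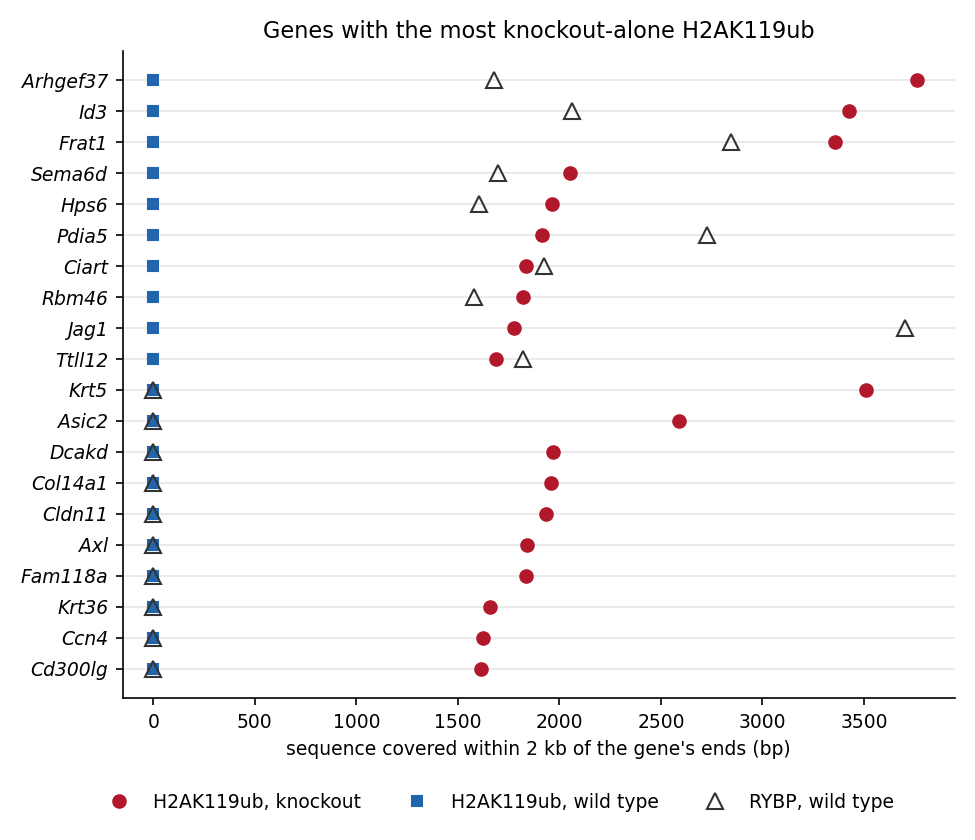
Base pairs covered within 2 kb of the gene's ends by knockout H2AK119ub (circles), wild-type H2AK119ub (squares, all at 0) and wild-type RYBP (triangles). Shown are the 10 genes with RYBP there (top) and the 10 without RYBP there (bottom) that had the most knockout-alone H2AK119ub. Predicted and clone-named genes were left out. Knockout values run from 3759 bp at Arhgef37 to 1613 bp at Cd300lg.

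Developmental regulators were mostly marked in both genotypes. None of 37 neural and ectoderm regulators, 45 mesoderm and endoderm regulators or 28 Hox genes was marked in the knockout alone, while 36, 32 and 27 of them were marked in both genotypes. The intervals of these 3 counts of 0 reach 9.41%, 7.87% and 12.1%, and so include the 2.80% of all genes. A gene with a wild-type peak at its ends cannot be marked in the knockout alone. In these 3 lists 0, 10 and 1 genes were marked in neither genotype. Wild-type marks thus largely fixed the counts of 0 in advance, which limits any comparison with all genes. None of 32 imprinted genes, 47 ion channel and synapse genes or 24 fibroblast and feeder genes was marked in the knockout alone. Their intervals reach 10.7%, 7.56% and 13.8%, and so also include 2.80%. In both genotypes 13, 36 and 9 of them were marked, so wild-type marks limited these counts too. Over 13 lists, 15 of 468 distinct genes (3.21%, 1.95 to 5.22) were marked in the knockout alone, close to the 2.80% of all genes, and a further 43 had a knockout-alone peak next to a wild-type one. The 15 had a median of 1311 bp of knockout-alone H2AK119ub, against 829.5 bp over all 518.

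Signalling genes gave 4 of 70: Id3, Jag1, the Wnt receptor gene Fzd8 (1311 bp, with 3526 bp of RYBP) and Fgf4, a growth factor gene of pluripotent cells (830 bp, no RYBP), which was also the 1 of 27 pluripotency genes. The Polycomb list gave 1 of 37, Kdm2b, with 1141 bp of H2AK119ub and 1807 bp of RYBP. Kdm2b also had wild-type H2AK119ub inside the gene, away from its ends. The germline list gave 2 of 30, Sycp1 (1585 bp) and the meiotic recombinase gene Dmc1 (860 bp), both with RYBP. Housekeeping genes gave 2 of 31, Polr2b, an RNA polymerase II subunit (1645 bp, with RYBP), and the tubulin gene Tubb5 (1010 bp, without).

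The immune and cytokine list had the highest share, 4 of 34 (11.8%, 4.67 to 26.6). Its 4 members were the interleukin gene Il12a (1568 bp), Cxcl10 (1259 bp), the lymphotoxin gene Ltb (829 bp) and the interleukin gene Il4 (577 bp), and none of the 4 had a RYBP peak. The epidermal and keratin list gave 2 of 33, Krt5 and the keratin gene Krt13 (1457 bp), both without RYBP. The nearest wild-type peak lay 472 bp from the 2 kb windows at the ends of Ltb. For Il4, Cxcl10 and Il12a it lay 5836, 40313 and 616613 bp away. The immune list is singled out for its highest share, and the lists were chosen with earlier results known. Its interval therefore cannot test it against the 2.80% of all genes. The counts of all these lists are small, and they describe the lists with no test.

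The 43 listed genes with a knockout-alone peak next to a wild-type one included Meox1, a mesodermal homeobox gene. Its ends held 3214 bp of H2AK119ub in the knockout, all of it in knockout-alone peaks, against 752 bp in the wild type, and no RYBP. At Hes1, a Notch target, they held 1502 bp in the knockout and 907 bp in the wild type, with 4234 bp of RYBP. At the Wnt receptor gene Fzd1 they held 2875 bp in the knockout, 1414 bp of it knockout-alone, and 1221 bp in the wild type. These 3 genes were chosen after their values were seen. Of the 27 pluripotency genes, 20 were marked in neither genotype.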

How the data were processed

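The deposited peak lists of 3 of the 5 samples were used, 1 for each library: H2AK119ub in the knockout, H2AK119ub in the wild type and RYBP in the wild type. The submitters' processing notes name Bowtie2 2.2.5, MACS 1.4 and the build mm10. Settings, peak threshold and any role of the inputs were not given in the sources used here. Each authors' list gives peak positions, and the deposited score column is 0 throughout, so peaks could be neither ranked nor filtered by strength. Read depth is unknown. A list from fewer reads or weaker enrichment holds fewer and narrower peaks, and this cannot be told apart from a difference between genotypes.

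Groups came from the sample titles. Overlap needed 1 bp, and a gap is the distance between the nearest edges. Genes and promoters came from RefSeq tables of GRCm38.p6, and genes were matched by ID. The gene table gives no strand or exons, and no genome sequence was used. The 17 autosomes used carry 18496 protein-coding genes, of which 14780 had a promoter sequence. Shares have Wilson intervals and differences of shares Newcombe intervals, at 95%. Medians have order-statistic intervals. Genes named were the 10 with and the 10 without RYBP that had the most knockout-alone H2AK119ub, without predicted and clone-named genes, plus Ddx5, Rybp and the list members marked in the knockout alone. Peaks named were the 8 widest, the 4 farthest, the 4 with the most RYBP and the 3 on either side of the rule's edge, of which 1 is not reported here. Other named genes and peaks were chosen after their values were seen. Rybp, on chromosome 6, had 1673 bp of H2AK119ub at its ends in the knockout and 1300 bp in the wild type. The members, lists and rules were chosen with earlier results of these data known. The alternatives changed the overlap, the peaks used, the chromosomes, the distance limit, the RYBP criterion and the gene windows. Scripts ran in Python 3.11.15 with numpy 2.4.6 and scipy 1.17.1 and were tested on simulated peaks with planted answers.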

Additional observations from a re-analysis of the deposited data

How the results depend on the processing

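Of 81 values under 16 alternatives, 38 moved by less than their counting interval or stayed within 1.5 times the count, and 43 moved further. Only the RYBP difference from shared peaks could change sign, and it did so under 0 alternatives. With a knockout peak counted as shared only where wild-type peaks covered at least 50% of it, 38.8% of knockout peaks were knockout-alone, with a median width of 815 bp, 64.2% within 5 kb of a wild-type peak and a RYBP difference from shared peaks of -22.5 points. With peaks within 1 kb of a wild-type peak counted as shared too, the values were 23.7%, 776 bp, 41.3% and -19.5 points, and 8.21% had RYBP. With peaks within 2 kb merged, they were 37.5% knockout-alone, 43.8% within 5 kb and -29.5 points. With peaks of at least 1 kb in both lists, 1724 were knockout-alone (19.5%), with a median of 1208 bp, 15.5% with RYBP, a difference of -24.1 points, 21.9% at gene ends and 228 genes marked in the knockout alone. With knockout peaks of at least 1 kb against all wild-type peaks, 1415 were knockout-alone (16.01%), with a median of 1200 bp, 63.1% within 5 kb, 15.5% with RYBP, a difference of -23.1 points, 22.5% at gene ends and 191 genes, 59.7% of them with RYBP. With equal numbers of the widest peaks in both genotypes, 35.9% were knockout-alone and 53.9% lay within 5 kb. With all autosomes and X, the median was 837 bp and 16.6% lay at gene ends. Limits of 2 and 10 kb in place of 5 kb took in 41.6% and 68.9%. With RYBP required to cover at least 50% of the peak, 6.40% of knockout-alone peaks and 33.4% of genes had it, and the difference was -10.2 points. With RYBP within 1 kb, the values for peaks were 13.0% and -24.4 points. Averaged over 4 width classes the difference was -14.2 points, and over places near and away from gene ends -18.8 points. Windows of 1 and 5 kb put 9.91% and 29.3% at gene ends. How membership depends on the peak threshold was not tested. No paired analysis was possible because each group had 1 library, and none could be left out.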

Other observations

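Among the 155 genes marked in the knockout alone with no wild-type peak within 100 kb, the most RYBP lay at Efna5, an ephrin ligand, with 4000 bp of RYBP and 716 bp of knockout H2AK119ub. Jag1 followed, then Ovol2, a zinc finger repressor of epithelial cells, with 3534 bp of RYBP and 1592 bp of H2AK119ub. Next came Fzd8 and then Cited2, a transcriptional co-regulator, with 3084 bp of RYBP and 1232 bp of H2AK119ub. The nearest wild-type peak lay 978970 bp from the windows of Efna5, 158386 bp from those of Ovol2 and 1625132 bp from those of Cited2.

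Of 131 gene families with at least 15 members, grouped by the letters that open the symbol, 63 had no gene marked in the knockout alone. Over all genes the share is 2.80%. The families with the highest shares were those opening with Sema (3 of 19: Sema4d, Sema6a and Sema6d), St (3 of 21), Galnt (2 of 15), Stx (2 of 15), Fgf (2 of 17), Wfdc (2 of 17) and Med (3 of 26). The keratins gave 6 of 53, Krt13, Krt26, Krt36, Krt5, Krt6a and Krt84. Among non-coding genes, 286 of 10967 lncRNA genes (2.61%, 2.33 to 2.92) and 23 of 1036 miRNA genes (2.22%, 1.48 to 3.31) were marked in the knockout alone, with RYBP at 72 and 4 of them. These families and genes were chosen after their values were seen. In windows of 10 Mb with at least 20 knockout peaks, the highest share of knockout-alone peaks was 65.7% (23 of 35), from 110 to 120 Mb of chromosome 10.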
